A study of Rattus norvegicus with 6 samples.

Results

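The genes described here carry the type I interferon signal from the cell surface to the nucleus. They are the receptor subunits Ifnar1 and Ifnar2, the receptor-bound kinases Jak1 and Tyk2, the transcription factors Stat2, Irf9, Irf7 and Irf1, and the pathway inhibitor Socs1. Members were the rows of the count table whose symbol equals 1 of these 9 names, and all 9 were found among 20609 genes. The libraries were made from rat PC12 cells, a line derived from a pheochromocytoma of the adrenal medulla. Of the 6 libraries, 3 came from cells given a control plasmid and 3 from cells with PCBP1 overexpression (PCBP1-OE). PCBP-1 is a poly(rC)-binding protein of the KH-domain family that acts on RNA and on transcription. The methods name an EGFP-tagged PCBP-1 plasmid, while the content of the control plasmid is not stated there. An effect of the tag and one of PCBP-1 therefore cannot be told apart. The transcript of PCBP-1 itself was not analysed here, so these counts hold no check of the overexpression.

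Interferon alpha and beta bind a receptor of IFNAR1, to which TYK2 is attached, and IFNAR2, to which JAK1 is attached. The kinases phosphorylate STAT proteins, among them STAT2, which joins IRF9 in the complex ISGF3 that binds the interferon-stimulated response element (ISRE) of antiviral genes, while other STAT dimers bind the gamma-activated sequence (GAS). IRF7 and IRF1 are made in larger amounts after this signal and act on further genes, and SOCS1 binds the kinases and ends the signal. Nearly all nucleated cells carry the receptor.

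Before the members are described, the libraries themselves were compared. They held 19730209 to 22315623 counts on genes. Of the genes tested, 562 were higher and 631 lower in PCBP1-OE at an adjusted p of 0.05 or less, or 655 higher and 427 lower under upper-quartile scaling. The defining genes of chromaffin cells were nearly absent. Dbh, Ddc, Chga, Chgb and Slc18a2 had between 0 and 9 counts per library, and Th, which encodes the rate-limiting enzyme of catecholamine synthesis, was at 6.85 to 8.86 CPM (counts scaled to a common library size). By contrast, Sox10 was at 362 to 408 CPM, S100b at 212 to 243 CPM and Pdgfra at 195 to 226 CPM, genes better known from glial and mesenchymal cells. The cells are therefore named here only as their label names them. Of the leukocyte markers, which would bring in interferon-responsive blood cells, Ptprc, Laptm5 and Spi1 had 0 to 5 counts per library. Cd68 had 56 to 81 counts and Cd3e 52 to 79 counts per library, and Cd14 was at 31.9 to 42.5 CPM. Over 5 marker lists, 31 genes were matched and 15 tested, and edgeR called 0 of them at an adjusted p of 0.05, with 4 at an unadjusted p of 0.05 or less. Limma-voom called 0 and DESeq2 1, which was lower. Summed over their lists, the 5 glial genes were at 620 to 664 CPM in controls and 587 to 606 CPM in PCBP1-OE, the 9 leukocyte genes at 43.8 to 50.7 and 38.6 to 43.6 CPM, and the 5 fibroblast genes at 255 to 258 and 231 to 241 CPM. These 3 sums were lower in PCBP1-OE with no overlap, and their part in the results below was not tested. The chromaffin sum, at 8.77 to 10.1 CPM in controls and 8.76 to 10.4 CPM in PCBP1-OE, and the endothelial sum, at 10.7 to 13 and 11.4 to 12.1 CPM, overlapped.

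In PCBP1-OE cells, 1 member rose and 1 fell at an adjusted p of 0.05 or less, that is 2 of 9 where 9.45% of all genes tested were called. Irf9, the DNA-binding subunit of ISGF3, rose 1.45-fold, from 23.7 ± 1.27 to 34.4 ± 4.76 CPM (SD, n = 3 each). Socs1, the inhibitor of the kinases, fell to 0.693 of its control level, from 7.32 ± 1.14 to 5.08 ± 0.391 CPM (SD, n = 3 each). The other 7 members did not pass the test, and Irf7 had the largest difference among them. CPM is the count per library total after scaling by the trimmed mean of M-values (TMM). It takes no account of transcript length, so the levels of different genes are not ranked here. The libraries are of whole cultures, in which a change in RNA per cell and a change in the share of cells that express a gene cannot be told apart.

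**Figure D1:**
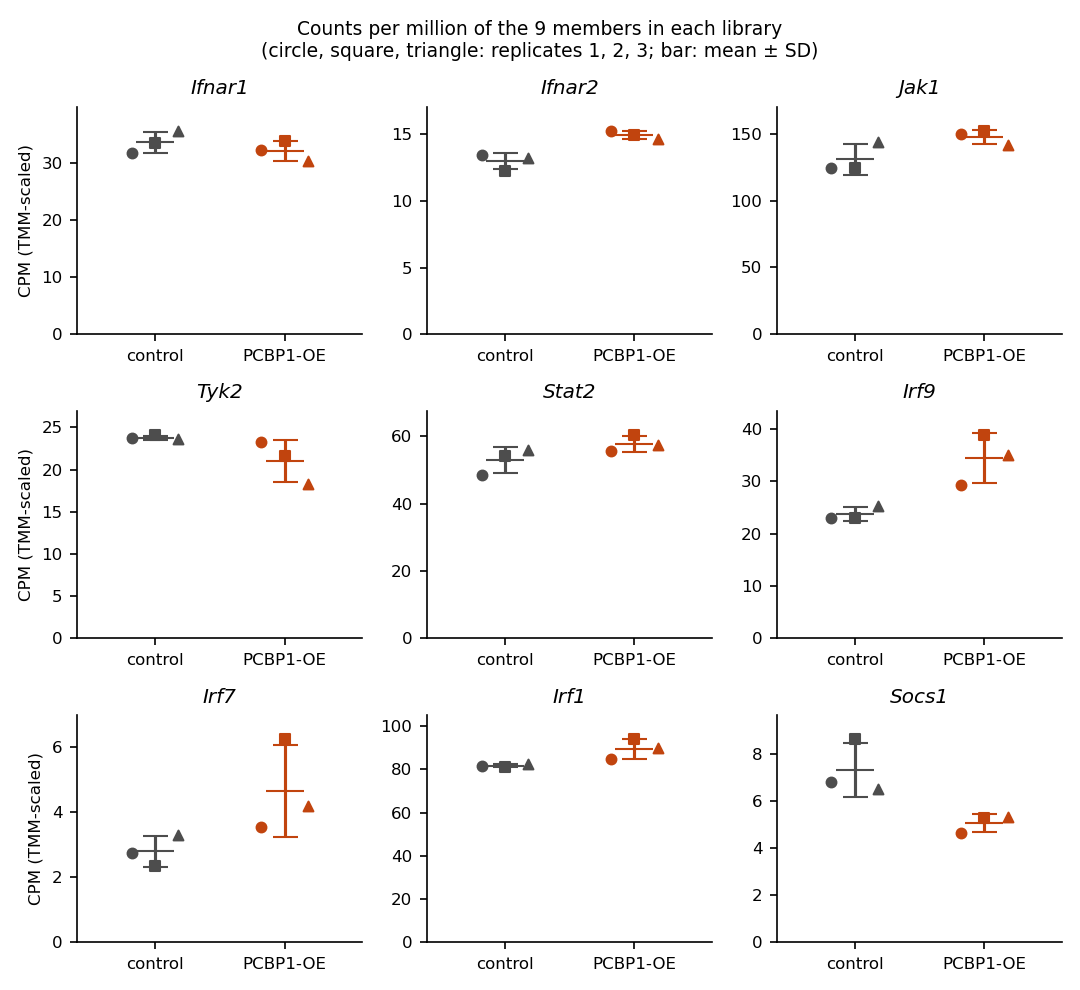
Each panel plots the CPM of 1 member (vertical axis, from 0) in the 3 control and the 3 PCBP1-OE libraries, with the symbol giving the replicate and bars the mean and SD. The groups do not overlap for Ifnar2, Tyk2, Irf9, Irf7, Irf1 and Socs1, and they overlap for Ifnar1, Jak1 and Stat2. Of all genes tested, 30.6% had groups without overlap.

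Promoter sequence was examined because several members are themselves targets of the pathway they carry. The RefSeq table for the rat assembly GRCr8 held 300-base promoters, from 250 bases before to 50 after the listed start, for 7 of 9 members, not for Jak1 or Tyk2. This assembly differs from the one used for the counts. The ISRE core was searched as GAAA, any pair of bases and GAAA again, and the GAS as TTCNNNGAA, both on either strand. The ISRE letters lie on the strand opposite to the printed one in Irf7, and the GAS reads the same on both strands. The ISRE core was found in 2 of the 7 promoters, Irf7 and Socs1, and in 3.92% of all 33469 promoters of that length. The GAS was found in 4 of the 7, Ifnar2, Irf9, Irf1 and Socs1, and in 8.87% of all. Ifnar1 and Stat2 held neither. The stretch from -200 to -51 relative to the start follows for the 4 transcription factor and inhibitor genes with a match, since Irf9, Irf7 and Socs1 had the largest differences among the members and Irf1 holds the GAS of another IRF gene. Each reads 5′ to 3′ on the strand of the gene, with matches in capitals.
Irf9 (GRCr8 chr15:33065636-33065785, plus strand): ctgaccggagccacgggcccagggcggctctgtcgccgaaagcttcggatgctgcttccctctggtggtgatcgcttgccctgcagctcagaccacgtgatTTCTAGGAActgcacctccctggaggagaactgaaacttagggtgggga
Irf7 (GRCr8 chr1:205800074-205800223, minus strand): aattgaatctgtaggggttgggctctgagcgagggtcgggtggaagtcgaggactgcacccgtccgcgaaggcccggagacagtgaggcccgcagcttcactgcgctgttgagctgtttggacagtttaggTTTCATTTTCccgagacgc
Irf1 (GRCr8 chr10:38417735-38417884, plus strand): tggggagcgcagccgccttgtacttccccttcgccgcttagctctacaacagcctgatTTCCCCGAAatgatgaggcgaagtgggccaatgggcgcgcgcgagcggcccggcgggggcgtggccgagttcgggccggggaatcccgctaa
Socs1 (GRCr8 chr10:5389374-5389523, plus strand): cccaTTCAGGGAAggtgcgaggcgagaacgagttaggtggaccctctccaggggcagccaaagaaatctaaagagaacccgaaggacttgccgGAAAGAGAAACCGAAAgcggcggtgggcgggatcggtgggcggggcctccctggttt

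In Irf9 the capitals mark a GAS from -99 to -91, and in Irf1 a GAS from -142 to -134. In Irf7 they mark an ISRE core from -69 to -60. Socs1 holds a GAS from -196 to -188, and a pair of ISRE cores, from -107 to -98 and from -101 to -92, that overlap each other. The match in Ifnar2, from -249 to -241, lies outside this stretch. The listed start of Irf7 lies inside the span that RefSeq gives the gene. A match of letters is a description and not a binding site.

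The receptor subunits had differences of opposite sign, neither of which passed the test. Ifnar1 (ENSRNOG00000028594, chromosome 11), the subunit that holds TYK2, was at 31.9, 33.6 and 35.6 CPM in control replicates 1, 2 and 3 and at 32.3, 33.9 and 30.3 CPM in PCBP1-OE. The groups overlapped, and the log2 fold change of -0.07 (standard error, SE, 0.07, adjusted p = 0.563) was no larger than its error. Ifnar2 (ENSRNOG00000045668, chromosome 11), the subunit that holds JAK1, was at 13.4, 12.3 and 13.2 CPM in controls and at 15.2, 14.9 and 14.6 CPM in PCBP1-OE. No control reached any PCBP1-OE library, yet the log2 fold change of 0.20 (SE 0.09) did not pass the test (adjusted p = 0.176).

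The kinases also pointed in different directions, and neither passed the test. Jak1 (ENSRNOG00000011157, chromosome 5), which also serves the interferon gamma and many cytokine receptors, was at 124, 124 and 144 CPM in controls and at 149, 152 and 141 CPM in PCBP1-OE. Control replicate 3 lay above PCBP1-OE replicate 3, and the log2 fold change was 0.17 (SE 0.06, adjusted p = 0.0778). Without control replicate 3, an omission that raised the share of all genes called from 9.45% to 22.3%, the log2 fold change of Jak1 was 0.25 with an adjusted p of 0.00215. With all libraries and no filter on low counts, Jak1 was at 0.17 with an adjusted p of 0.0215. Tyk2 (ENSRNOG00000032948, chromosome 8) was at 23.7, 24.1 and 23.6 CPM in controls and at 23.2, 21.6 and 18.3 CPM in PCBP1-OE. All 3 PCBP1-OE values were below the controls, but PCBP1-OE replicate 1 was close to them, and the log2 fold change of -0.18 (SE 0.09) had an adjusted p of 0.231. Without PCBP1-OE replicate 3 the difference of Tyk2 was smaller, at -0.08.

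Of those subunits of ISGF3 that are among the members, Irf9 rose while Stat2 did not pass the test. Irf9 (ENSRNOG00000019478, chromosome 15) was at 22.9, 23.0 and 25.2 CPM in controls and at 29.3, 38.8 and 35.0 CPM in PCBP1-OE. Every PCBP1-OE library was above every control, with replicate 2 the highest. The log2 fold change was 0.53 (SE 0.10, edgeR adjusted p = 0.00978). The call of Irf9 was lost without control replicate 2 (adjusted p = 0.0692) and without PCBP1-OE replicate 2 (0.0551), at log2 fold changes of 0.52 and 0.44, and held without each of the other 4 libraries. Over all 14 alternatives its adjusted p ranged from 4.8e-09 to 0.0858. Stat2 (ENSRNOG00000031081, chromosome 7), which brings the transactivation domain to the complex, was at 48.5, 54.1 and 55.9 CPM in controls and at 55.7, 60.3 and 57.4 CPM in PCBP1-OE. PCBP1-OE replicate 1 lay just under control replicate 3, and the log2 fold change of 0.13 (SE 0.06) had an adjusted p of 0.188.

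The IRF genes were Irf7, which switches on the interferon alpha genes, and Irf1, which acts on antiviral and antigen-presentation genes. Irf7 (ENSRNOG00000017414, chromosome 1) had 54, 49 and 74 control counts against 78, 126 and 82 in PCBP1-OE, the fewest of all members. On the CPM scale these were 2.75, 2.35 and 3.30 against 3.54, 6.24 and 4.19 in PCBP1-OE. The groups did not overlap, but control replicate 3 and PCBP1-OE replicate 1 were close together and PCBP1-OE replicate 2 stood well above the rest. Counting error alone gave control replicate 2 of Irf7 an exact 95% binomial interval of 1.74 to 3.10 CPM, against 144 to 155 CPM for Jak1 in PCBP1-OE replicate 1. Such intervals leave out the spread between libraries. The log2 fold change of Irf7 was 0.73 (SE 0.23), larger than that of Irf9, and its adjusted p of 0.0593 missed the threshold. Without control replicate 3 it passed, with a log2 fold change of 0.86 and an adjusted p of 0.0182, and without PCBP1-OE replicate 2 the log2 fold change was 0.46 (adjusted p = 0.248). DESeq2 (0.0391) and the likelihood-ratio test of edgeR (0.0282) put Irf7 under the threshold. Irf1 (ENSRNOG00000008144, chromosome 10) was at 81.8, 81.1 and 82.5 CPM in controls and at 84.7, 93.9 and 89.9 CPM in PCBP1-OE. The controls lay within a narrow range and all PCBP1-OE values were above them, and the log2 fold change of 0.13 (SE 0.05) had an adjusted p of 0.10.

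The inhibitor moved opposite to Irf9. Socs1 (ENSRNOG00000002568, chromosome 10) had 134, 180 and 146 control counts against 102, 107 and 104 in PCBP1-OE. These were 6.83, 8.62 and 6.51 CPM in controls and 4.63, 5.30 and 5.31 CPM in PCBP1-OE, with no overlap and with control replicate 2 the highest. The log2 fold change was -0.53 (SE 0.15), and the adjusted p of 0.0461 was just inside the threshold. The call of Socs1 held without control replicate 3 (adjusted p = 0.0126) and was lost without each of the other 5 libraries. Omitting control replicate 1 or 2 gave an adjusted p of 0.103 or 0.214, and it was 0.178, 0.116 and 0.0904 without each PCBP1-OE replicate in turn. The log2 fold change was smallest, at -0.39, without control replicate 2. Upper-quartile scaling (0.0531) and limma-voom (0.0502) also put Socs1 above 0.05. The sign of the difference was the same in all 14 alternatives.

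**Figure D2:**
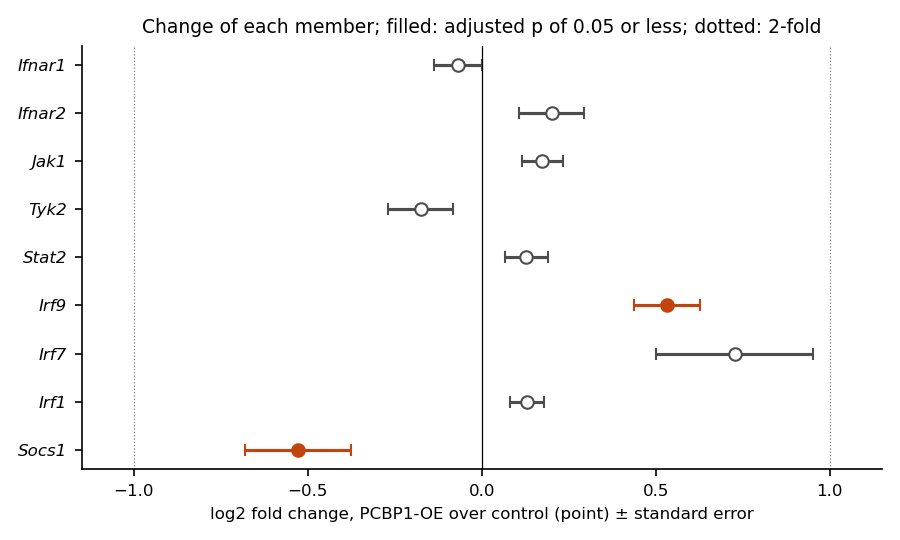
The log2 fold change of each member in PCBP1-OE over control (horizontal axis) is plotted with its standard error, filled where the adjusted p is 0.05 or less. Irf9 at 0.53 and Socs1 at -0.53 are filled, Irf7 at 0.73 is not, and no member reaches the dotted lines of a 2-fold change.

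**Figure D3:**
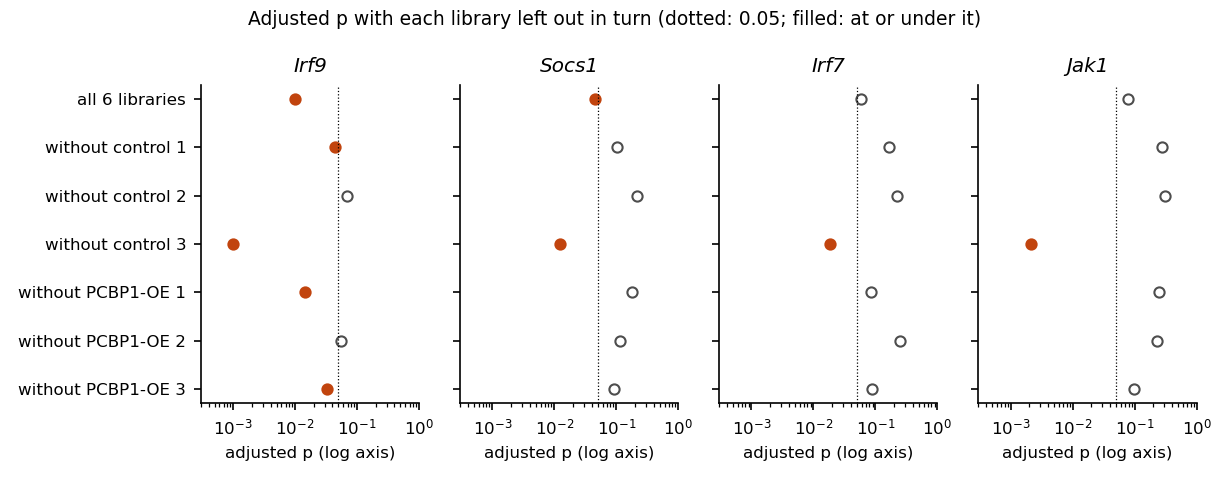
Adjusted p (horizontal log axis) of Irf9, Socs1, Irf7 and Jak1 is shown with all 6 libraries and with each left out in turn, filled at 0.05 or less. Leaving out control replicate 3 put all 4 genes at or under 0.05, and leaving out control replicate 2 put none of them there.

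Set against the whole table, 2 of the 9 members (22.2%) were called, where 9.45% of the 12624 genes tested were. By direction, 1 member was higher against 4.45% of all genes, and 1 was lower against 5.0%. With so few members these shares are a description. All 9 members had enough counts to be tested. At an unadjusted p of 0.05 or less there were 5 members, against 28.4% of all genes tested. The groups did not overlap for 6 of the 9 members (66.7%), against 30.6% of all genes tested. The median log2 fold change of the members was 0.13 and that of all genes tested 0.0029. At the threshold that the study's methods set for a differentially expressed gene, an adjusted p of 0.05 with a 2-fold change, edgeR called 0 members, against 0.190% of all genes, and none passed with the unadjusted p, DESeq2, limma-voom or any other alternative. The number of members called ranged from 0 to 4 when 1 library was left out, with 4 without control replicate 3. There were 0 calls without replicate 2 of either group, and 1 call on each of the 3 other omissions. The share of all genes called moved as well, to 22.3% without control replicate 3, 0.375% without control replicate 2, 1.06% without PCBP1-OE replicate 2 and 1.32% to 5.42% on the other omissions, so calls gained or lost in this way are not particular to the members.

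Members of like role were next compared in pairs, as the ratio of their read counts within each library. This ratio does not depend on how libraries are scaled. Transcript length cancels in it between groups only if both groups use the same transcript forms, which was not tested. Irf7 and Irf1 were paired only as IRF genes. The 4 pairs were chosen by role with the values of the members known. Ifnar1 had 2.38, 2.74 and 2.69 reads per read of Ifnar2 in controls against 2.12, 2.27 and 2.08 in PCBP1-OE. The ratio was lower in all PCBP1-OE libraries, by -0.27 on the log2 scale. Jak1 had 5.23, 5.17 and 6.11 reads per read of Tyk2 in controls against 6.43, 7.03 and 7.74 in PCBP1-OE, which differ by 0.36 on the log2 scale. Within ISGF3, Irf9 had 0.473, 0.426 and 0.451 reads per read of Stat2 in controls against 0.526, 0.643 and 0.610 in PCBP1-OE, which differ by 0.39 on the log2 scale. The ratio of Irf7 to Irf1 was 0.0337, 0.0290 and 0.0400 in controls against 0.0418, 0.0665 and 0.0466 in PCBP1-OE, which differ by 0.58 on the log2 scale. In all 4 pairs the groups did not overlap. Of single genes tested, 30.6% also had groups without overlap, and the share among ratios of other gene pairs was not computed. Each two-sided exact permutation test gave p = 0.1, also after adjustment over the 4 pairs, which is the smallest p that 3 libraries against 3 allow. Irf9 was thus higher relative to Stat2 in every PCBP1-OE library, while the design cannot take such a test below 0.05.

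**Figure D4:**
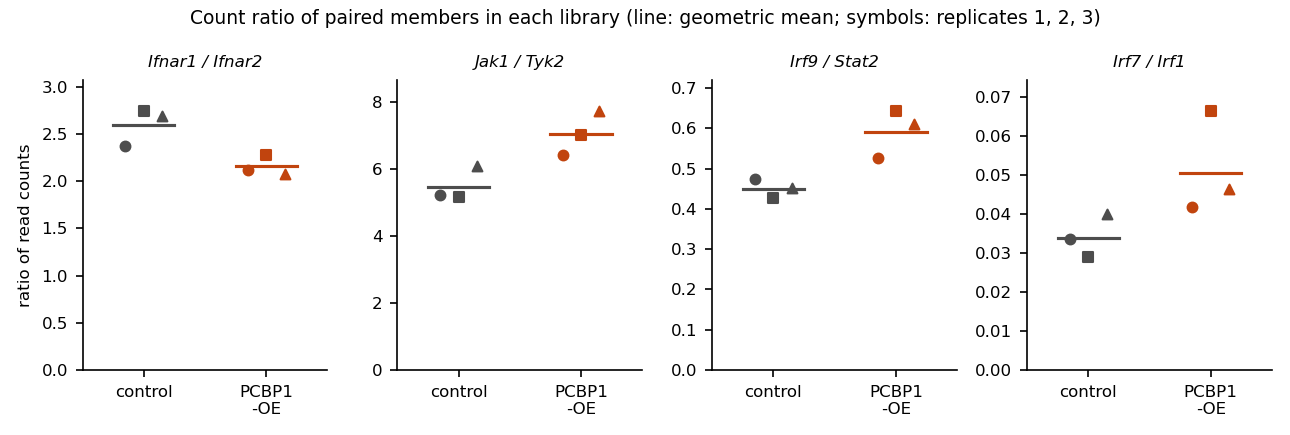
Each panel plots the ratio of the read counts of 2 genes in each library (vertical axis, from 0), with a line at the geometric mean of the group. In the first panel, of Ifnar1 over Ifnar2, the PCBP1-OE libraries lie below the controls, and in the other 3 panels they lie above them.

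The other genes of the pathway were counted by lists, which were written by role. Of 56 genes listed 47 were matched by symbol and 38 tested, and 4 were higher and 1 lower, 13.2% of those tested against 9.45% of all genes. Without control replicate 3, where 22.3% of all genes were called, there were 10 such calls. Without each of the other libraries there were 2 or 3, where 0.375% to 5.42% of all genes were called. The ligand genes were nearly silent. Ifnb1, the interferon beta gene, had 0, 0 and 1 control counts against 5, 1 and 1 in PCBP1-OE, and Ifng, the interferon gamma gene, had 1, 0 and 4 and then 1, 1 and 2. Of the 12 ligand genes listed 5 were matched, Ifna5 and Ifnk with at most 2 counts in a library, and Ifne alone had enough counts for a test, with an adjusted p of 0.750. A change in ligand RNA was thus not resolved at this depth.

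Among 7 other receptor subunits tested, 1 was higher and 1 lower. Il6st, which encodes gp130, the shared signal chain of the interleukin-6 family that uses JAK1, rose from 28.6, 24.8 and 36.6 CPM to 46.8, 51.0 and 40.6 CPM. The log2 fold change of Il6st was 0.62 (SE 0.12, adjusted p = 0.0120). The call of Il6st was lost without control replicates 1 (0.0538) or 2 (0.0706) or PCBP1-OE replicates 1 (0.0601) or 2 (0.0624). Ifngr1, the ligand-binding chain of the interferon gamma receptor, was at 76.6, 76.0 and 77.5 CPM in controls and 66.8, 70.3 and 69.4 CPM in PCBP1-OE. Its fall of -0.16 (SE 0.05) on the log2 scale had an adjusted p of 0.0496, and 12 of 14 alternatives put it above 0.05, among them each omission of a library except that of control replicate 3, with adjusted p-values of 0.0839 to 0.170.

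Of the other 2 JAK kinases, Jak2 and Jak3, neither passed the test (adjusted p = 0.185 and 0.902). Stat3, which gp130 receptors activate, had a log2 fold change of 0.13 with an adjusted p of 0.0724. Of the other IRF genes, Irf4, Irf5 and Irf8 were too low for a test. Irf2, which can oppose IRF1 on the same DNA sites, and Irf3, which is activated by the same kinases as IRF7, differed in opposite directions. Irf2 had a log2 fold change of 0.23 (adjusted p = 0.0594) and Irf3 one of -0.22 (adjusted p = 0.0552), both with groups that did not overlap and both short of a call. Of 5 kinases upstream of the IRFs, Chuk, which encodes IKK alpha, rose by a log2 fold change of 0.27 (SE 0.07, adjusted p = 0.0349). The other 4 were not called, and 2 of them were lower in PCBP1-OE with no overlap. Of all genes tested, 30.6% had groups without overlap. Chuk was at 51.1, 53.3 and 51.7 CPM in controls and 67.3, 54.8 and 66.2 CPM in PCBP1-OE, with replicate 2 near the controls. The call of Chuk was lost without control replicates 1 (0.104) or 2 (0.116) or PCBP1-OE replicates 1 (0.149) or 3 (0.0871).

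Of 16 other negative regulators tested, only Usp18 was called by this test (6.25%), where 9.45% of all genes tested were called. USP18 is the ISG15 protease that also sits on IFNAR2 and displaces JAK1, and its gene is a target of ISGF3. It was at 23.8, 24.4 and 19.3 CPM in controls and 33.7, 38 and 33.1 CPM in PCBP1-OE, for a log2 fold change of 0.64 (SE 0.09, adjusted p = 0.00445), and the call held in all 14 alternatives. Socs2 to Socs7, relatives of Socs1, had adjusted p-values of 0.185 to 0.795. Socs3, the family member that acts mainly on gp130 receptors, was at a log2 fold change of 0.19 (adjusted p = 0.437). Among the SOCS genes, a call was made for Socs1 alone, which with so few genes and that share is only a description. The differences between the SOCS genes were not tested.

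**Figure D5:**
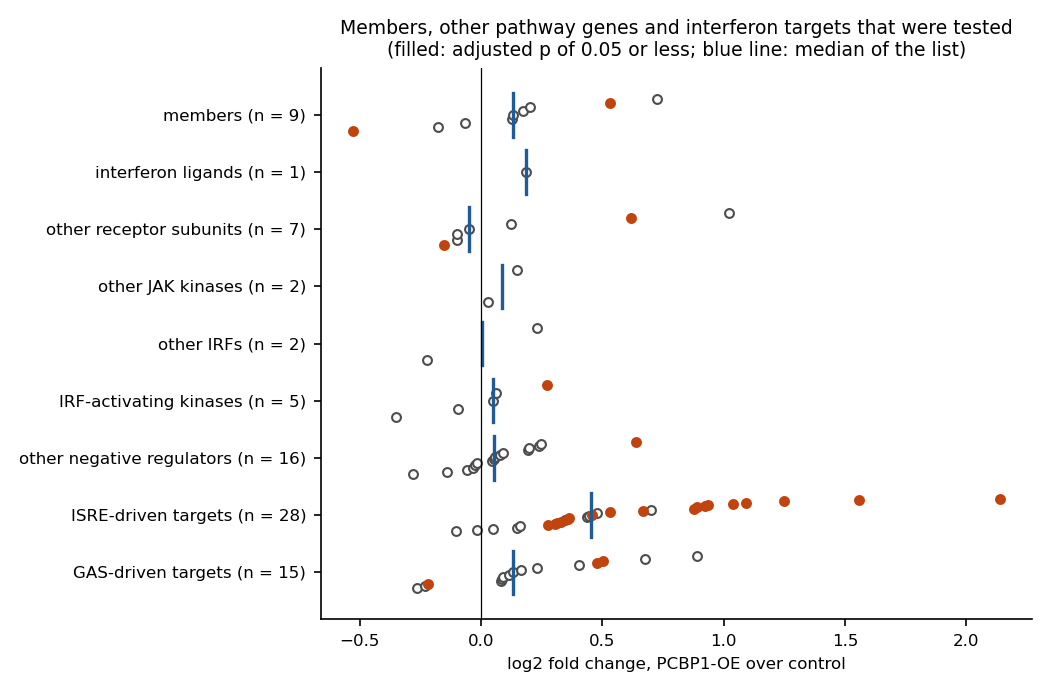
Each point is the log2 fold change (horizontal axis) of 1 tested gene in PCBP1-OE over control, by list, filled where the adjusted p is 0.05 or less, with the median of the list as a blue line. The members have their median at 0.13 with 2 filled points, and the targets with an ISRE have theirs at 0.45 with 18 of 28 filled. Of all genes tested, 9.45% had such an adjusted p.

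Genes that ISGF3 acts on were set beside the members. Some of these targets were known to differ in these libraries when the list was written, so its count is not independent of them. Of 28 tested targets known for an ISRE, 18 were higher and 0 lower by edgeR's test (64.3%), as also by DESeq2 and limma-voom. Of all genes tested, 4.45% were higher and 5.0% lower by edgeR. At an unadjusted p of 0.05 or less there were 23 ISRE targets, against 28.4% of all genes. The median log2 fold change of the ISRE targets was 0.45. Of 15 targets known for a GAS, 2 were higher and 1 lower (20%), with a median of 0.13. Among the first, Mx2, Rsad2 and Ifit3 had the lowest adjusted p-values (2.2e-04, 6.0e-04 and 0.00149). Among the second, Cxcl10 had a log2 fold change of 0.48 (adjusted p = 0.00125) and Igtp one of 0.50 (0.0137), while Psmb10 fell by 0.22 on the log2 scale (0.0448). The call of Igtp was lost without control replicates 1 (0.0582) or 2 (0.0785) or PCBP1-OE replicate 2 (0.0747), and that of Psmb10 without each library except control replicate 3 (0.0700 to 0.184). Over both lists, 21 of 43 targets (48.8%) were called, against 9.45% of all genes. Without control replicate 2 there were 10 (9 of them with an ISRE), against 0.375% of all genes. There were 12 (11 with an ISRE) without PCBP1-OE replicate 2, against 1.06% of all genes. Irf9, with 0.53, and Irf7, with 0.73, lay above the median log2 fold change of the ISRE targets, and Stat2, Irf1, Jak1 and Ifnar2, at 0.13 to 0.20, were below it, as a comparison of values without a test.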

How the data were processed

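The submitters deposited raw read counts per gene for 6 libraries, which the authors made from poly-A RNA. According to the methods, FASTX-Toolkit trimmed the reads, TopHat2 placed them on Rnor_6.0 and only unique hits entered the counts. The processing notes name GRCh38, a human build, while the gene IDs are rat. The labels and the methods name different library kits, and neither the counter nor its use of strand is stated. Reads of Ifnar2, Jak1 and Socs1, which overlap other genes in RefSeq, may therefore be shared with those. Libraries were grouped by their titles. The study calls the replicates biological, and neither it nor the labels says that they were separate cultures, so p-values measure the spread between these libraries, which may be partly technical. All pairs of replicates differed by more than counting error (chi-square per gene of 4.87 to 16.9).

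Members and gene lists were chosen with earlier results of these data known. The whole table was fitted with edgeR 4.0.16 in R 4.3.3 (quasi-likelihood test, TMM, filterByExpr with a minimum count of 10), which kept 12624 genes. P-values were adjusted by the Benjamini-Hochberg method over all of them, and the standard error is the log2 fold change divided by the root of F. The code was tested on simulated data. The alternatives comprised upper-quartile and RLE scaling, no filter, at least 1 CPM in 3 libraries, DESeq2 1.42.0, limma-voom (limma 3.58.1), the edgeR likelihood-ratio test, a block for the replicate number and each library left out. Named genes are all members, called genes of the signalling lists, the 3 targets of each kind with the lowest adjusted p and the 3 genes most like Stat2, Irf9 and Irf7. Irf2, Irf3, Stat3, Jak2, Jak3, Socs3 and the ligand genes were named after their values were seen. A few genes that this rule or the lists hold are counted but not reported by name here.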

Additional observations from a re-analysis of the deposited data

How the results depend on the processing

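No member changed sign in any of the 14 alternatives. Against 2 members called, upper-quartile scaling and limma-voom called 1, no filter 4, DESeq2 and the likelihood-ratio test 3, and leaving out 1 library 0 to 4. No filter also took Jak1 (adjusted p = 0.0215) and Irf7 (0.00448) under the threshold. Leaving out 1 library gave 2 to 10 other signalling genes against 5, 10 to 30 targets against 21 and 48 to 2860 of all genes against 1193. Without a filter 2090 of all genes were called. The cause of these shifts was not tested. Same-numbered libraries did not deviate together from their group means, with correlations of -0.104, -0.0813 and -0.107. The other pairs of a control and a PCBP1-OE library had 0.0151 to 0.0827. Such weak correlations cannot show whether same-numbered libraries were prepared together. With the replicate block, 0 members (5 at an unadjusted p of 0.05), 1 other signalling gene, 5 targets and 16 of all genes were called, Irf9 was at an adjusted p of 0.0858 and Socs1 at 0.139. Irf7 had the fewest counts of all members, at 49 to 126 per library, and the part of depth in its result was not tested.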

Other observations

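The genes named below, whose values were among the closest to Stat2, Irf9 and Irf7 over the 6 libraries, were not on the target lists. By Pearson's r of log2 CPM among genes with a mean of at least 10 CPM, they included Tcp11l2, Lcmt2 and Ddx31 for Stat2 (r of 0.993, 0.990 and 0.990), Vcpip1 and Usp36 for Irf9 (0.993 and 0.991) and Ganc, Kpna6 and Banp for Irf7 (0.994, 0.982 and 0.982). The 6 points share the same 2 groups, and 139, 178 and 147 genes had an r above 0.9 with Stat2, Irf9 and Irf7, so these are descriptions of few points with no test.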
